A study of Homo sapiens with 6 samples.

Results

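The proteasome genes described here are the 50 genes of the table whose symbol is PSMA, PSMB, PSMC, PSMD, PSME, PSMF or PSMG with a number, together with POMP and ADRM1. They were taken by name out of 56794 genes. The rule uses symbols alone, although the family was picked with earlier results of these data known. Of these 50 genes, 46 reached an abundance of 1 in mutant or parental libraries and are called measured. The RNA came from HEK293, an embryonic kidney line of human origin used to make recombinant protein, here expressing luciferase. The 3 libraries labelled CASP8AP2 mutant came from such cells in which the CASP8AP2 gene was deleted with CRISPR, and the 3 parental libraries came from the luciferase line with CASP8AP2 not targeted. CASP8AP2 encodes a protein of the histone pre-mRNA processing machinery. All cells were grown in DMEM with serum and without further treatment, and the labels do not say whether the mutant cells were a single clone.

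The proteasome is the protease that degrades proteins tagged with ubiquitin. Its barrel-shaped core is built of rings of alpha subunits, which gate the entrance, around rings of beta subunits, some of which cut peptides, and a regulatory particle on the end of the barrel binds the tagged protein, removes the ubiquitin and threads the chain inward. The base of that particle holds a ring of ATPases and the ubiquitin receptors, the lid holds the deubiquitinase, and separate activators, an inhibitor and a set of assembly chaperones complete the family. In many cell types the subunit genes are transcribed together, with NFE2L1 raising them when proteasome activity is short.

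The authors' deposited table holds a mean for each group and no value for single libraries, so each level below is a group mean without a spread and no test was run beyond the p-values that the table gives. The sources used here do not name the scale of these means, and their values behave as an abundance scaled to transcript length. A level is that abundance, summed over the transcripts of a gene, and a log2 ratio divides mutant by parental with 1 added to each. A p-value quoted for a gene is the deposited p of its most abundant transcript, not adjusted for the number of transcripts, and the word called means a deposited adjusted p under 0.05. Depth in units of 1000000 reads was estimated from the most frequent values, scaled by transcript length, among transcripts with reads in 1 library. It was 57.5, 15.0 and 13.3 for mutant, and 15.3, 11.6 and 9.19 for parental. At the shallowest parental library the parental group means of the members' most abundant transcripts stood for between 40.1 and 2027 reads, with a median of 704. Nothing in the labels says that the replicates were separate cultures, so the p-values may measure technical spread only. CASP8AP2 itself stood at 15.7 in the mutant libraries and 15.9 in the parental libraries, so its RNA level did not tell the groups apart, and mutant is used here for the libraries with that label. Of the marker lists, 4 of 5 epithelial and kidney genes were measured, while none of 5 blood and 0 of 2 endothelial genes reached an abundance of 1. COL1A1 was the measured gene among 3 fibroblast markers, at 5.82 in mutant and 2.17 in parental libraries, and the epithelial and kidney genes ranged in log2 ratio from -0.90 in KRT8 (37.3 in mutant, 70.6 in parental libraries) over -0.48 in EPCAM and -0.15 in KRT18 to 0.54 in PAX2 (3.08 in mutant, 1.80 in parental libraries). The part of these marker differences in the proteasome values was not tested.

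Most proteasome genes had a lower mean level in the mutant libraries. Summed over the 46 measured members, abundance was 2520 in mutant and 3013 in parental libraries, 16.4% lower in mutant. In all, 31 members were lower and 15 higher (50.6% of all 14856 measured genes were lower), with a median log2 ratio of -0.29 against -0.01 over all measured genes. A log2 ratio of -0.5 or below was seen in 14 members, or 30.4%, against 11.3% of all measured genes. No member reached 0.5 in the other direction, where 11.5% of all measured genes did. Over all 50 genes with no minimum level, 34 were lower and the median was -0.25. In bulk RNA such a difference cannot be assigned to fewer cells with these transcripts or to less RNA in each cell.

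None of the differences passed adjustment. In the authors' deposited table no transcript of a member was called, the smallest adjusted p among the 422 member transcripts with a p was 0.237, and 0.0221% of all 140552 transcripts with a p were called. Before adjustment, the most abundant transcript had a p under 0.05 in the authors' deposited table in 13 members with a lower level in mutant and in 1 with a higher level. These were 28.3% and 2.17% of the measured members, against 8.63% lower and 5.17% higher among all measured genes. Genes with higher levels had more small p-values. Among the 7044 genes at an abundance of 10 or more these shares were 10.8% lower and 5.57% higher, and 54.6% had a log2 ratio under 0, beside 29 of the 43 members at that level. The smallest p-values among members were spread over the structure, with PSMC2 in the base, PSMB2 in the core, PSMD13 in the lid and PSMC4 in the base again.

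**Figure D1:**
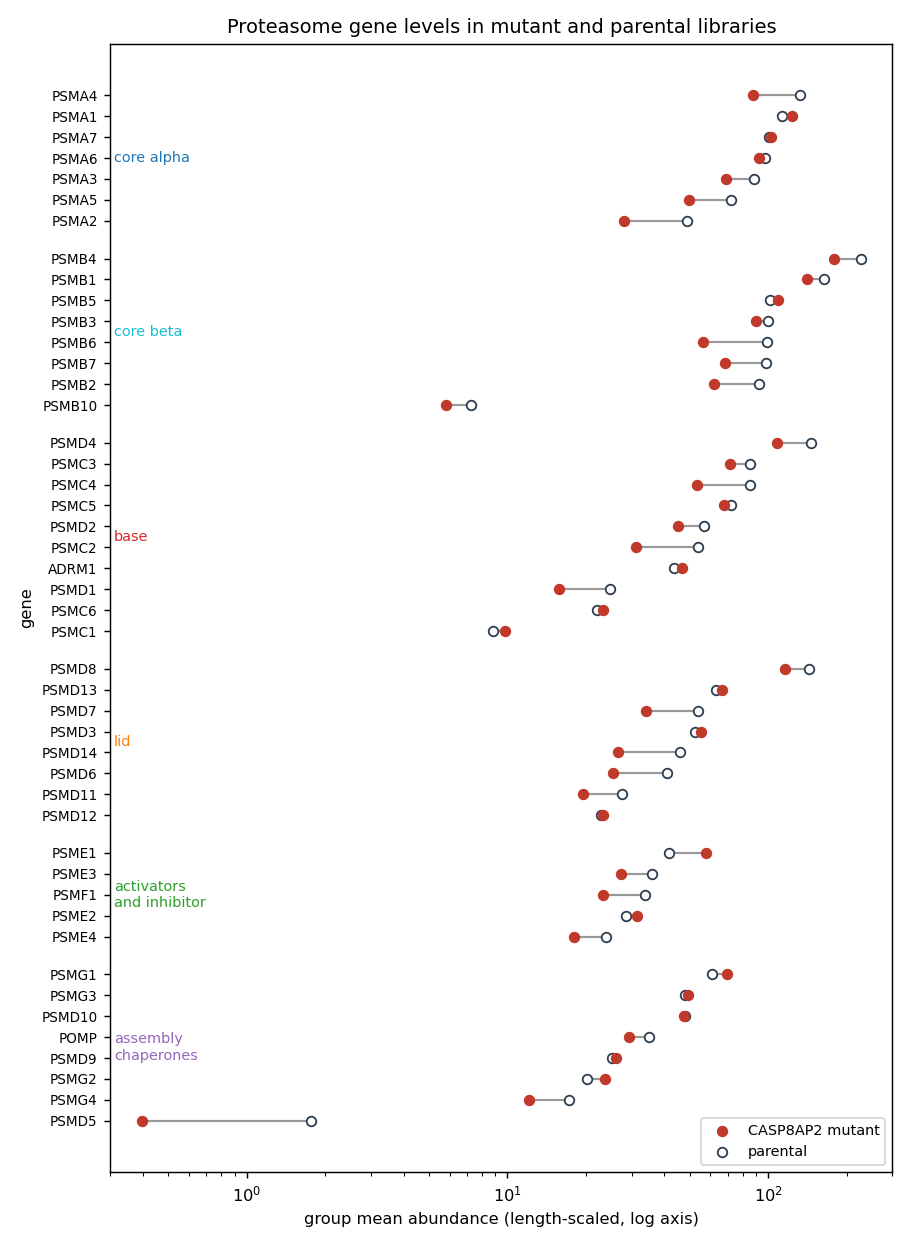
Group mean abundance (length-scaled, log axis) of the 46 measured proteasome genes by class, with filled red points for CASP8AP2 mutant and open points for parental libraries, joined by a line for each gene. The lines run to the left of the parental point in 31 genes, with the widest gap in PSMD5 at the lowest level, and to the right in 15.

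The promoters of 5 members are shown, because proteasome genes are known for shared promoter elements and these members include the smallest p-values in both directions. They are the promoters of the 4 members with the smallest p of the most abundant transcript and a single RefSeq entry, followed by that of PSME1, which had the highest log2 ratio. Each runs from 250 bases before to 50 bases after the transcription start on RefSeq's GRCh38.p14 build, written 5′ to 3′ on the gene's own strand. Capitals mark a match to CCAAT, the box bound by NF-Y, or to TGACNNNGC, the core of the antioxidant response element bound by NFE2L1 and NFE2L2 with small MAF proteins.
PSMC2 (chr7:103347393-103347692, plus strand): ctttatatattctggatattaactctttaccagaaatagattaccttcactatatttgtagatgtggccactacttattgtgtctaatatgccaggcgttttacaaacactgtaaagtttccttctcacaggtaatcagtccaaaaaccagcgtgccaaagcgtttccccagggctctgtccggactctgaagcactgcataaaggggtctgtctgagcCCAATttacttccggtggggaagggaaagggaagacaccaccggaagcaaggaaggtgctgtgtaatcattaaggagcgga
PSMB2 (chr1:35641477-35641776, minus strand): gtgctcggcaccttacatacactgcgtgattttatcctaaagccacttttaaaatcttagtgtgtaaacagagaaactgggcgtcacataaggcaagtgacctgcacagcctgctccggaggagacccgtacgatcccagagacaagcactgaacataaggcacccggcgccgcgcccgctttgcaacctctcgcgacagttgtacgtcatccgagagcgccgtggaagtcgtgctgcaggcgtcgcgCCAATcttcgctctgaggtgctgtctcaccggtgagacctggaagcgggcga
PSMD13 (chr11:236726-237025, plus strand): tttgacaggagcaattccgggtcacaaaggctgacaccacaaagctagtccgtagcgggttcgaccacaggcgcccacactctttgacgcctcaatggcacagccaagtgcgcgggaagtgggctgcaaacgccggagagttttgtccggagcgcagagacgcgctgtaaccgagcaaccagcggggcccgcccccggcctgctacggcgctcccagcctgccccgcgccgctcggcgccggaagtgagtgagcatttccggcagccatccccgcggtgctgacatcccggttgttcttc
PSMC4 (chr19:39970915-39971214, plus strand): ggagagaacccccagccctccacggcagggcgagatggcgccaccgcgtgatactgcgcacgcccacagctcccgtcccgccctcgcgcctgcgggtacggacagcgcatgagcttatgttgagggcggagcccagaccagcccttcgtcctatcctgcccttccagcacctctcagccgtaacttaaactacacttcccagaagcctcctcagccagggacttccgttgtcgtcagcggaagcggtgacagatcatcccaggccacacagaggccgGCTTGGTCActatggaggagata
PSME1 (chr14:24135944-24136243, plus strand): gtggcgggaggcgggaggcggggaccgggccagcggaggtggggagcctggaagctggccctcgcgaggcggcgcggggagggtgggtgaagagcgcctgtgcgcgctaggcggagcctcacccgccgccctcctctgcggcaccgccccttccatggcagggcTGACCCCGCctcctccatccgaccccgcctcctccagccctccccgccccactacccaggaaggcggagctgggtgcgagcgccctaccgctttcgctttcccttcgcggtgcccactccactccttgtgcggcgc

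PSMC2 and PSMB2, the members with the smallest p-values, each held a CCAAT close to the start, with its first base at position -31 in PSMC2 and -2 in PSMB2, counted from the start. PSMD13 held neither motif. In PSMC4 the match to TGACNNNGC lay at position 28 and reads on the minus strand, and in PSME1 it lay at position -86. Of the 50 members, 44 had a promoter entry in the RefSeq table, 40 of them measured, and PSMA7, PSMB1, PSMB6, PSMB7, PSMD4 and PSMG3 had none. CCAAT, sought on both strands, was found in 19 of the 40 (47.5%), against 34.6% of all 35116 promoters and 43.4% of the 10029 measured genes with an entry. Members with CCAAT were lower in 15 of 19 cases with a median log2 ratio of -0.36, and members without it in 12 of 21 with a median of -0.25. TGACNNNGC was found on either strand in 15 of 40 (37.5%), against 13.3% of all promoters and 19.3% of measured genes. The members with TGACNNNGC lay higher, with 7 of 15 lower and a median log2 ratio of 0.03, while 20 of 25 members without it were lower with a median of -0.34. With this motif were the activators PSME1, PSME2 and PSME4 and the assembly chaperones PSMD5, PSMD9, PSMG1 and PSMG2. It was also found in the core genes PSMA4 and PSMB3 and the base genes ADRM1, PSMC4, PSMC5 and PSMD1. The lid genes PSMD3 and PSMD12 held it too. Among the lower members with the motif were PSMD5 (-0.99), PSMC4 (-0.67), PSMD1 (-0.62) and PSMA4 (-0.60). Of the higher members with it, ADRM1, PSMD3, PSMD9, PSMD12, PSME2 and PSMG1 lay below the median of genes within 2.5 Mb. PSME1 and PSMG2 lay above that local median. Over all measured genes the median log2 ratio was -0.01 both with and without either motif. These matches describe letters in a window, and whether the 2 sets of members differ was not tested.

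The alpha subunits form the outer rings of the core and its gate. Their summed level was 552 in mutant and 653 in parental libraries, 15.4% lower in mutant, with 5 of 7 measured genes lower and a median log2 ratio of -0.36. PSMA2 had the lowest log2 ratio of the class, -0.78, with 28.1 in mutant and 48.8 in parental libraries, and the authors' deposited table gave p = 0.0551. PSMA4, whose yeast counterpart provides the tail that holds the gate shut, stood at 87.2 in mutant and 133 in parental libraries, a log2 ratio of -0.60 with p = 0.0325 in the authors' deposited table. PSMA3 stood at 68.9 in mutant and 88.5 in parental libraries, a log2 ratio of -0.36 with p = 0.0256 in the authors' deposited table. PSMA5 stood at 49.6 in mutant and 71.9 in parental libraries, a log2 ratio of -0.53. Protein-coding transcripts held 2.42% of the PSMA5 level in mutant and 3.34% in parental libraries. Its most abundant transcript, PSMA5-204, is annotated as a processed transcript. The remaining alpha genes differed little. PSMA6 stood at 92.6 in mutant and 97.2 in parental libraries, and PSMA7 at 102 in mutant and 100.4 in parental libraries. PSMA8, the testis form of PSMA7, was under the minimum level, with 0 in mutant and 0.0138 in parental libraries.

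PSMA1 was the alpha gene with the highest log2 ratio, 0.12, at 124 in mutant and 113 in parental libraries. Its transcripts moved apart, which was seen after their values were examined. The most abundant one, PSMA1-201, had 50.9 in mutant and 62.5 in parental libraries. Both of the other protein-coding transcripts at an abundance above 1 were higher in mutant. PSMA1-209 had 30.3 in mutant and 19.2 in parental libraries with p = 0.000761 in the authors' deposited table, and PSMA1-202 had 12.6 in mutant and 4.59 in parental libraries with p = 0.0222 there. PSMA1-209 had the second smallest p of any member transcript.

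Beta subunits make up the inner rings, and PSMB5, PSMB6 and PSMB7 carry the chymotrypsin-like, caspase-like and trypsin-like active sites. The class summed to 712 in mutant and 890.4 in parental libraries, 20.03% lower in mutant, with 7 of 8 measured genes lower and a median log2 ratio of -0.31. The 3 catalytic genes did not go together. PSMB6 (chr17:4796144-4798503, plus strand, hg38) had the lowest log2 ratio of the core, -0.80, with 56.5 in mutant and 99.1 in parental libraries and p = 0.00918 in the authors' deposited table. PSMB7 stood at 68.5 in mutant and 98.5 in parental libraries, a log2 ratio of -0.52 with p = 0.0112 in the authors' deposited table. PSMB5, the site that proteasome inhibitor drugs mainly block, stood at 109 in mutant and 102 in parental libraries, a log2 ratio of 0.10. It was the member of the class that was not lower, though it was 0.18 below its neighbours' median.

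Non-catalytic beta genes were lower as well. PSMB2 (chr1:35599544-35641844, minus strand, hg38) had 62.1 in mutant and 92.0 in parental libraries, a log2 ratio of -0.56, with p = 0.000939 in the authors' deposited table. PSMB4, the most abundant proteasome gene in both groups, had 179.7 in mutant and 228 in parental libraries, a log2 ratio of -0.34. PSMB1 and PSMB3 lay nearer to 0. PSMB1 had 141 in mutant and 164 in parental libraries, and PSMB3 had 89.6 in mutant and 100.1 in parental libraries. The interferon-inducible catalytic subunits that form the immunoproteasome were almost absent from these cells. PSMB8 stood at 0.150 in mutant and 0.304 in parental libraries, PSMB9 at 0.373 in mutant and 0.452 in parental libraries, and the thymus subunit PSMB11 at 0.00667 in mutant and 0 in parental libraries. PSMB10 was the immunoproteasome gene that was measured, at 5.80 in mutant and 7.25 in parental libraries. Its log2 ratio was -0.28 over all transcripts and 0.49 over protein-coding transcripts alone, since a retained-intron transcript, PSMB10-203, held most of the level.

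In the base, PSMC1 to PSMC6 are the ATPases that unfold the substrate, PSMD1 and PSMD2 are the large scaffold subunits, and PSMD4 and ADRM1 are ubiquitin receptors. The class summed to 473 in mutant and 599.7 in parental libraries, 21.1% lower in mutant, with 7 of 10 genes lower and a median log2 ratio of -0.29. PSMC2 (chr7:103344254-103369395, plus strand, hg38) had the smallest p of all members. Its level was 31.1 in mutant and 54.0 in parental libraries, a log2 ratio of -0.78, and its most abundant transcript PSMC2-206, with 21.1 in mutant and 38.2 in parental libraries, had p = 0.000354 in the authors' deposited table, or 0.237 after adjustment. PSMC4 stood at 53.5 in mutant and 85.6 in parental libraries, a log2 ratio of -0.67 with p = 0.00463 in the authors' deposited table. PSMC3 had 71.6 in mutant and 85.6 in parental libraries, and PSMC5 had 67.8 in mutant and 71.9 in parental libraries.

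The ATPases form a ring with each kind present in equal number, yet their transcript ratios were not alike. PSMC6 had 23.4 in mutant and 22.1 in parental libraries, a log2 ratio of 0.08, and PSMC1 had 9.79 in mutant and 8.84 in parental libraries, a log2 ratio of 0.13. Over protein-coding transcripts alone both turned lower, to -0.16 for PSMC6 and -0.04 for PSMC1. PSMC1 has a pseudogene, PSMC1P1, which the table lists at 47.5 in mutant and 47.1 in parental libraries. The pseudogene was thus several times more abundant than its parent, reads from one may have been counted for the other, and with its pseudogenes added PSMC1 stood at 57.3 in mutant and 56.0 in parental libraries. Among the other base genes, PSMD1 had 15.8 in mutant and 24.8 in parental libraries, a log2 ratio of -0.62 with p = 0.0304 in the authors' deposited table. PSMD2 had 45.0 in mutant and 56.8 in parental libraries. The receptors differed in direction, with PSMD4 at 109 in mutant and 146 in parental libraries (log2 ratio -0.43) and ADRM1 at 46.6 in mutant and 43.6 in parental libraries (log2 ratio 0.09, and -0.10 after trends with GC content and length were taken off).

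The lid carries PSMD14, the deubiquitinase that removes the chain, bound to its inactive partner PSMD7, on a horseshoe of scaffold subunits. Lid genes summed to 367 in mutant and 449.97 in parental libraries, 18.5% lower in mutant, with 5 of 8 lower and a median log2 ratio of -0.39. PSMD14 (chr2:161308038-161411717, plus strand, hg38) and its partner were both lower. PSMD14 had 26.5 in mutant and 45.8 in parental libraries, a log2 ratio of -0.77 with p = 0.0217 in the authors' deposited table. PSMD7 had 34.1 in mutant and 53.9 in parental libraries, a log2 ratio of -0.64 with p = 0.00861 in the authors' deposited table. PSMD6, a scaffold subunit, had 25.5 in mutant and 40.8 in parental libraries with p = 0.0406 in the authors' deposited table.

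The other scaffold genes of the lid ranged from lower to level. PSMD11, a subunit linked to proteasome assembly in stem cells, had 19.5 in mutant and 27.4 in parental libraries, a log2 ratio of -0.47. PSMD8 had 116 in mutant and 144 in parental libraries, a log2 ratio of -0.30. PSMD3 had 55.1 in mutant and 52.4 in parental libraries, and PSMD12 had 23.3 in mutant and 22.8 in parental libraries. PSMD13, at 66.6 in mutant and 63.3 in parental libraries with a log2 ratio of 0.07, was the member that was higher with a small p. That p, 0.00293 in the authors' deposited table, belongs to PSMD13-204, annotated as a target of nonsense-mediated decay, at 22.6 in mutant and 18.0 in parental libraries. Its log2 ratio was 0.31, and no protein-coding transcript of PSMD13 at an abundance of 1 or more had a p under 0.05 there.

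**Figure D2:**
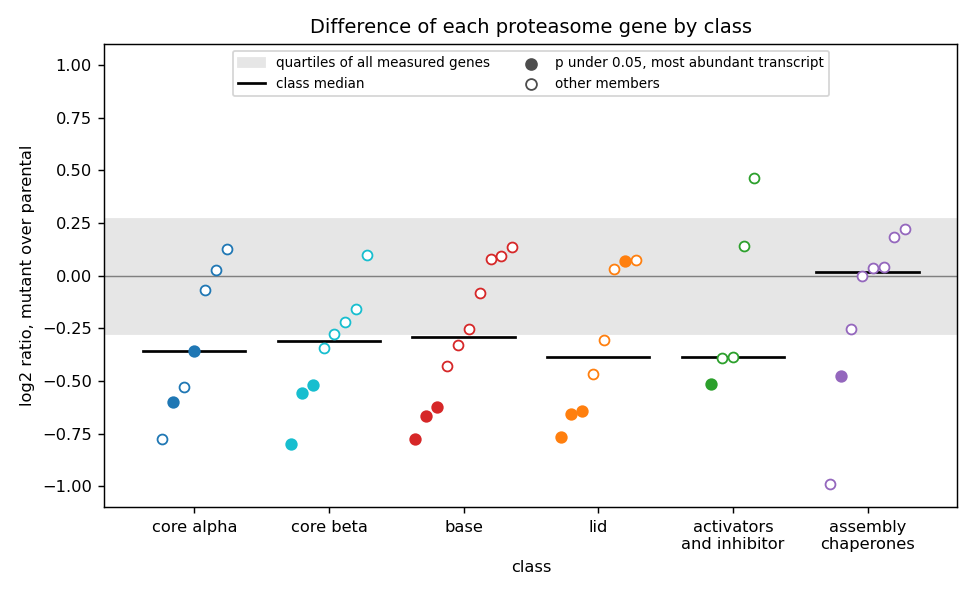
Log2 ratio (mutant over parental) of each measured proteasome gene by class, with a bar at the class median, filled points where the most abundant transcript had a deposited p under 0.05, and a grey band for the quartiles of all measured genes (-0.28 to 0.27). The medians of the 5 classes from core alpha to activators and inhibitor lie between -0.29 and -0.39, below the band, and that of the assembly chaperones lies at 0.02 and turns to -0.20 when the most abundant transcript alone is used, to -0.11 over protein-coding transcripts and to -0.15 relative to neighbouring genes.

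Activators open the core without ATP, and PSMF1 is an inhibitor of the core in vitro. The 5 genes summed to 158 in mutant and 164 in parental libraries, 3.47% lower in mutant, with 3 lower and 2 higher. PSME1 (chr14:24136158-24138967, plus strand, hg38) had the highest log2 ratio of all members, 0.47, with 58.1 in mutant and 41.8 in parental libraries and p = 0.103 in the authors' deposited table. PSME2, which forms the interferon-inducible activator ring with PSME1 and lies beside it on chromosome 14, had 31.5 in mutant and 28.4 in parental libraries, a log2 ratio of 0.14 that was -0.14 for its most abundant transcript and -0.15 relative to neighbours. The nuclear activators had lower gene sums in mutant, although PSME4 was level with its neighbours at 0.01 above their median. PSME3 had 27.3 in mutant and 36.0 in parental libraries, and PSME4, which acts on acetylated histones, had 18.0 in mutant and 23.9 in parental libraries, with log2 ratios of -0.39 in both. Protein-coding transcripts held 27.5% of the PSME4 level in mutant and 29.5% in parental libraries. PSMF1 had 23.3 in mutant and 33.7 in parental libraries, a log2 ratio of -0.51 with p = 0.0101 in the authors' deposited table.

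Assembly chaperones bind unfinished core or base particles and leave when assembly is complete. Unlike the sums of the subunit classes, theirs was level, at 258 in mutant and 256 in parental libraries, with 4 of 8 lower and 4 higher. PSMG1 and PSMG2, which pair to guide the alpha ring, were both slightly higher in mutant as gene sums, but PSMG1 was at -0.05 relative to its neighbours and PSMG2 at -0.05 for its most abundant transcript. PSMG1 had 69.4 in mutant and 60.9 in parental libraries, a log2 ratio of 0.18, and PSMG2 had 23.6 in mutant and 20.2 in parental libraries, a log2 ratio of 0.22. PSMG3 and PSMG4, the second pair, were unlike each other. PSMG3 had 49.5 in mutant and 48.2 in parental libraries, while PSMG4 had 12.1 in mutant and 17.2 in parental libraries, a log2 ratio of -0.48 with p = 0.00638 in the authors' deposited table. POMP, which enables maturation of the beta ring, had 29.2 in mutant and 35.0 in parental libraries, a log2 ratio of -0.25.

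The base chaperones PSMD9 and PSMD10 were near level. PSMD10 (gankyrin) had 47.7 in mutant and 47.9 in parental libraries, and PSMD9 had 26.01 in mutant and 25.3 in parental libraries. Within PSMD9, the decay-annotated transcript PSMD9-209 had 11.2 in mutant and 7.09 in parental libraries with p = 0.00386 in the authors' deposited table, and was picked after its values were seen. The most abundant transcript, PSMD9-204, also annotated for decay, went the other way, with 8.42 in mutant and 10.5 in parental libraries. The log2 ratio of PSMD9 was -0.28 for that transcript, -0.21 over protein-coding transcripts and -0.19 relative to neighbours. PSMD5 had the lowest log2 ratio of all members, -0.99, at 0.395 in mutant and 1.77 in parental libraries with p = 0.0515 in the authors' deposited table. PSMD5 passed the minimum level through its parental value alone, and its log2 ratio was -1.91 when 0.1 was added in place of 1. The difference between assembly chaperones and the core and regulatory classes was not tested.

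Most of the difference in summed level was in protein-coding transcripts, which hold most of the level. These summed to 1991 in mutant and 2439 in parental libraries over all members, a ratio of 0.816, against 0.978 over all coding transcripts of the table. Non-coding transcripts of the same genes (nonsense-mediated decay, retained intron and processed transcript) summed to 529.7 in mutant and 575 in parental libraries, a ratio of 0.922, against 1.05 over the table. The types differed, with a ratio of 0.792 for processed transcripts, 0.949 for retained introns and 1.03 for nonsense-mediated decay. At a p under 0.05 in the authors' deposited table, 26 member transcripts were lower and 17 higher, which is 6.16% and 4.03% of those with a p, against 2.48% lower and 3.3% higher over the table. The coding ones among them were 19 lower and 5 higher, and the non-coding ones were 7 lower and 12 higher. The table leans the same way by type, with 2259 lower and 1940 higher among 65264 coding transcripts with a p, and 772 lower and 2122 higher among 54374 non-coding ones. Of the 220 member transcripts at an abundance of 1 or more, 22 were lower and 11 higher at that p, beside 6.01% lower and 5.78% higher over the table at that level. Retained-intron transcripts of members at an abundance of 1 or more were 37 lower and 40 higher with a median log2 ratio of 0.00, beside a median of 0.17 for that type over the table. Coding transcripts of members had a median of -0.17 beside -0.02 over the table, so members lay below the table by a similar amount in both types. The coding share of a gene's level was lower in mutant in 35 of 44 members with both kinds, against 61.9% of 9817 measured genes and 64.5% of those at an abundance of 10 or more.

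**Figure D3:**
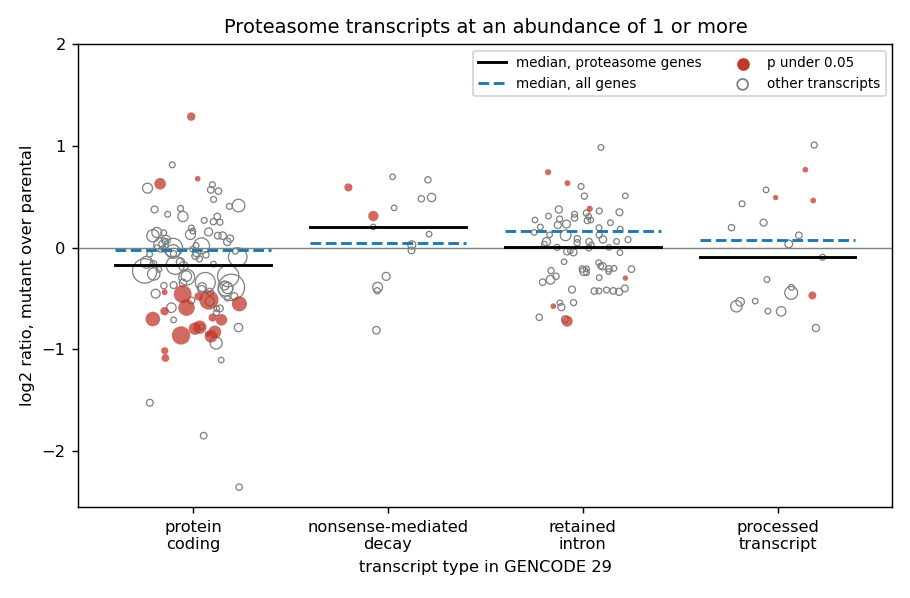
Log2 ratio (mutant over parental) of the proteasome transcripts at an abundance of 1 or more, by transcript type, with point area growing with level, red where the deposited p was under 0.05, and lines at the median of proteasome genes (solid) and of all genes (dashed). Red points are mostly below 0 among protein-coding transcripts, whose median is -0.17, and the retained-intron median of 0.00 lies below the 0.17 of all genes.

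Levels in this table also varied along the chromosomes, so each member was set beside the measured genes, not members themselves, that start within 2.5 Mb of it. The members' log2 ratios varied with those of their neighbours, with a Pearson correlation of 0.71 and a Spearman correlation of 0.73 over 46 genes, where the points share libraries and, for nearby members, neighbours. Over the other 14557 measured genes with at least 5 neighbours the values were 0.40 and 0.43. Against this local level, 39 of 46 members were below their neighbours' median (84.8%, beside 50.3% of all measured genes with 5 or more neighbours). At least 0.5 below on the log2 scale were 10 members (21.7%, beside 8.67%), and the median difference was -0.30. All 8 core beta and all 8 lid genes lay below their neighbours. Of the 15 members that were higher in mutant, 13 sat among neighbours whose median was above 0. So did the lower members PSMA6, PSMB1, PSMB2, PSMB3, PSMC3, PSMC5, PSMD10 and PSME3. The share over all measured genes was not computed. PSMD13 lay where the neighbours' median was 0.43, PSMB5 at 0.28 and ADRM1 at 0.40, and each was below it. PSMC3 and PSME3 lay 0.70 and 0.69 below their neighbours, although their own log2 ratios were -0.25 and -0.39. PSME1 exceeded its neighbours' median of 0.30 by 0.17. On chromosome 14, 5 of 7 members were higher, on a chromosome whose median over 509 measured genes was 0.15. On chromosome 1 none of 4 members was higher, on chromosome 2 none of 3, with chromosome medians of -0.07 and -0.15. Members did not follow the chromosome median on chromosome 17, where 2 of 7 were higher beside a median of 0.13. Nor did they on chromosome 20, with 2 of 3 higher beside a median of -0.09. Among chromosomes with 1 member, POMP on chromosome 13 (-0.25) and PSMA4 on chromosome 15 (-0.60) were lower beside medians of 0.07 and 0.08. PSMD10 on chromosome X had -0.004 beside 0.04. The members on chromosomes 12, 18 and 21 were higher, and so were those chromosome medians. The neighbours were compared after earlier values had been seen, and what sets the regional levels was not tested.

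**Figure D4:**
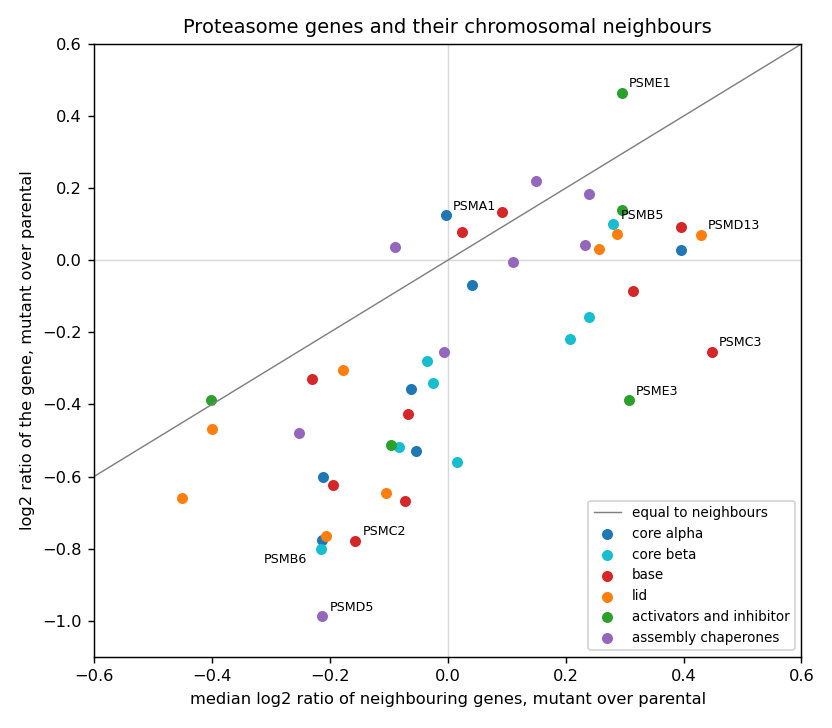
Log2 ratio (mutant over parental) of each measured proteasome gene against the median log2 ratio of its neighbouring genes, coloured by class, with a line where gene and neighbours are equal. Of the 46 genes 39 lie under the line, including PSMC3 and PSME3 far below neighbours that were higher in mutant, and 7 lie above it.

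GC content of the members was close to that of all genes, with a median of 48.3% against 48.6% for all measured genes. The Spearman correlation of GC content with the log2 ratio was 0.09 over the 46 members and 0.31 over 14723 measured genes, all from the same libraries. With trends on GC content and transcript length taken off, the members' median was -0.25, with 32 lower and 14 higher, and 5 members changed sign (ADRM1, PSMA6, PSMD3, PSMD10 and PSMG3). The library kit named in the labels does not mark the strand of the RNA. Members whose exons overlap a gene on the opposite strand may therefore share reads with it. With a gene on the same strand, reads may be shared whatever the kit. For 8 members the most abundant transcript overlapped a measured or listed gene, by 0.895% of its bases in PSME1 (EMC9) and 1.61% for MRPL32 in PSMA2, up to 83.1% in PSMC1 (NRDE2) and 83.4% in PSMB10 (AC040162.1). Values of PSMA2 (52.5%, AC010132.3), PSMA6 (81.0%, AL121594.1) and PSMD7 (50.4%, AC009120.2) are uncertain in the same way. AC040162.1, AC010132.3 and AL121594.1 lie on the member's own strand, and the other overlapping genes named here on the opposite one. LAMA5, which covers 16.4% of the ADRM1 transcript, stood at 40.3 in mutant and 22.7 in parental libraries.

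Genes that work with the proteasome were also mostly lower, but by less than the members. Of 50 genes in 5 lists, 36 were lower and 14 higher with a median log2 ratio of -0.14, beside 50.6% lower and a median of -0.01 over all measured genes. A log2 ratio of -0.5 or below was seen in 3 of them (6%, beside 11.3% of all measured genes). A ratio of 0.5 or above was seen in 3. Relative to neighbours, 30 of 48 were below (62.5%), beside 84.8% of members and 50.3% of measured genes with 5 or more neighbours. At a p under 0.05 of the most abundant transcript in the authors' deposited table, 9 were lower and 2 higher, beside 8.63% lower and 5.17% higher over all measured genes. Among 18 proteasome-bound factors and shuttles, 14 were lower and 4 higher. SEM1, a small lid subunit without a PSM symbol, stood at 71.0 in mutant and 107 in parental libraries with p = 0.0277 in the authors' deposited table. Its log2 ratio was -0.59, beside a median of -0.39 over the lid genes, of which 3 of 8 were higher. The shuttle UBQLN1 had 28.3 in mutant and 46.6 in parental libraries with p = 0.0311 in the authors' deposited table. UBQLN4, of the same shuttle family, had 23.2 in mutant and 29.02 in parental libraries with p = 0.00193 in the authors' deposited table. ZFAND5, a proteasome-stimulating protein, had 44.6 in mutant and 49.2 in parental libraries, a log2 ratio of -0.14. Its p of 0.00748 in the authors' deposited table belongs to ZFAND5-205, with 15.6 in mutant and 23.3 in parental libraries. The proteasome-bound deubiquitinases USP14 and UCHL5 were lower without a small p, USP14 at 12.4 in mutant and 16.2 in parental libraries and UCHL5 at 17.1 in mutant and 23.6 in parental libraries.

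The transcription factors of proteasome genes and the proteins that process them were near level, with 8 of 13 lower and a median log2 ratio of -0.05. NFE2L1, the main activator of subunit genes, had 45.4 in mutant and 36.7 in parental libraries, and NFE2L2 had 25.4 in mutant and 28.2 in parental libraries. The related factor NFE2L3 had 5.62 in mutant and 7.97 in parental libraries with p = 0.000887 in the authors' deposited table. NFYC, a subunit of the CCAAT-binding factor, had 32.7 in mutant and 39.7 in parental libraries with p = 0.0328 in the authors' deposited table. SYVN1, a ubiquitin ligase of the endoplasmic reticulum that turns over NFE2L1, had 22.6 in mutant and 15.0 in parental libraries with p = 0.0154 in the authors' deposited table.

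Upstream of the proteasome, 4 of 6 genes for ubiquitin and its activating enzymes were lower, with a median log2 ratio of -0.17. UBB, a polyubiquitin gene, had 586 in mutant and 787 in parental libraries with p = 0.0475 in the authors' deposited table. Of 10 genes for the segregase p97 and its cofactors, 7 were lower. VCP, which encodes p97, had 76.6 in mutant and 90.4 in parental libraries. Its cofactor partners UFD1 and NPLOC4, which act as a pair, differed in opposite directions in the authors' deposited table, UFD1 with 30.1 in mutant and 38.5 in parental libraries (p = 0.0133) and NPLOC4 with 42.7 in mutant and 25.4 in parental libraries (p = 0.00157). FAF2, another cofactor, had 18.8 in mutant and 25.8 in parental libraries with p = 0.0240 in the authors' deposited table. The 3 antigen-processing genes near PSMB8 and PSMB9 were measured, unlike those subunits, and all were slightly lower as gene sums, with a median log2 ratio of -0.13. Relative to neighbours, all 3 lay above the local median, by between 0.17 and 0.35.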

How the data were processed

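Per the labels' protocols, total RNA was isolated with the RNeasy kit and the NEBNext Ultra kit with random primers made the libraries. Per the submitters' processing notes, bcl2fastq, STAR and Partek were used with hg38, and no version, setting or use of strand is given in these notes. Per the file headers, the score named LSMean is a least-squares mean of each group in the authors' deposited comparison of mutant with parental libraries. With 1 taken off, these means summed to 496162 in both groups. The deposited signal named total counts, the ratio, the fold change and the p-values, all kept as scores, come from the authors, and no column held a single library (0 columns). For 1370 transcripts that could be turned back into whole reads, a comparison of log2(value + 1) on 4 degrees of freedom came within 0.002 of the deposited p in 86.9%, against 42.6% for untransformed values. The read sizes used for this came from transcripts whose p was that of reads in 1 library, 9574 in mutant and 4488 in parental libraries. The same read sizes gave the estimated depth of each library.

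The design named fits of single libraries or, where the table held group means, a description of the authors' values. The second case held, so every p and adjusted p printed is the authors', and no p was adjusted over the members alone. Gene levels were sums over transcripts of LSMean minus 1, and genes at 1 or more in either group were kept. Transcript types and positions came from GENCODE 29, in which 99.1% of the transcripts were found. Promoter sequences came from RefSeq on GRCh38.p14. Every measured member is given by class. Of the 5 related lists, genes with p under 0.05 were named, and SEM1, NFE2L1, NFE2L2, USP14, UCHL5, UBB and VCP whatever their p, and 1 further gene of this rule is not reported here. Other transcripts were picked after their values were seen. The members and lists were chosen with earlier results of these data known. Trends with GC content and length were running medians over 40 bins, averaged over 5. The steps for read size and trends were tested on simulated data. Python 3.11.15, pandas 2.3.3, numpy 2.4.6, scipy 1.17.1 and matplotlib 3.10.9 were used.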

Additional observations from a re-analysis of the deposited data

How the results depend on the processing

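The members' median log2 ratio stayed between -0.25 and -0.37 and the number of lower members between 30 and 39 in every alternative run (a minimum of 5, no minimum, an added 0.1, the most abundant transcript, coding transcripts, the all-gene median, GC and length trends or the neighbours' median taken off, pseudogenes added). The last 2 of these and the comparison at a minimum of 10 were chosen after seeing the data. Class medians moved as follows. With no minimum the core alpha median was -0.21, through the addition of PSMA8. With GC and length trends taken off, the core alpha median was -0.15 and that of activators and inhibitor -0.22. Relative to neighbours, the medians were -0.41 for core beta, -0.22 for lid and -0.15 for activators and inhibitor. The assembly chaperones turned from 0.02 to -0.20 with the most abundant transcript, to -0.11 with coding transcripts and to -0.15 relative to neighbours, and the cause was not tested. At p under 0.01 in the authors' deposited table, 6 members were lower and 1 higher. Of the related lists 3 genes were lower and 1 higher at that p (2.98% and 1.47% of all measured genes). Counted by any transcript, 19 members were lower and 8 higher, and of the related lists 14 genes were lower and 10 higher (15.9% and 19.1% of all measured genes). Of the 46 single members, 10 changed sign relative to neighbours, 7 with the most abundant transcript, 5 with coding transcripts and 5 with GC and length trends taken off. No paired analysis was possible because the table holds group means, and for the same reason leaving out each replicate, edgeR and DESeq2 were not run, so whether 1 library decides a value was not tested. The mutant group holds the deepest library, at 6.26 times the shallowest parental one.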

Other observations

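Pseudogenes of proteasome genes were listed at lower levels than their parents except for PSMC1P1. Pseudogenes of PSMA6 summed to 18.5 in mutant and 20.9 in parental libraries, and those of PSME2 to 6.90 in mutant and 6.58 in parental libraries. With them added, PSMA6 stood at 111 in mutant and 118 in parental libraries, a log2 ratio of -0.09, and PSME2 at 38.3 in mutant and 35.0 in parental libraries, a log2 ratio of 0.13. Pseudogenes of the other 9 parents with a named copy held less than 1 in either group.

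Within PSMC6, whose level was near equal in both groups, the most abundant coding transcripts PSMC6-218 and PSMC6-219 and the retained-intron transcript PSMC6-213 did not go together. PSMC6-219 had 6.32 in mutant and 8.30 in parental libraries, PSMC6-218 had 8.02 in mutant and 7.68 in parental libraries, and PSMC6-213 had 3.41 in mutant and 1.64 in parental libraries with p = 0.00153 in the authors' deposited table. These transcripts were picked after their values were seen, and none was called after adjustment.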
